A study of Mus musculus with 5 samples.

Results

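The Slc25 family encodes the mitochondrial carriers, and its transcripts were examined in whole lenses of 14-day-old mice. A gene was a member when its symbol in the deposited table begins with Slc25a and at least 10 counts were found in 2 or more of the 5 libraries. Of the 22183 genes in the table, 47 bear such a symbol and 37 met the count rule. Conditional Yap1 knockout lenses (cKO) gave 2 libraries and control lenses (Ctrl) gave 3, each from a pool of 4 to 6 lenses. Yap1 is the effector that Hippo signalling keeps out of the nucleus. The genotype of a cKO mouse was either Yap1f/f;Cre or the heterozygous Yap1f/+;Cre, and its lenses were taken for a severe phenotype alone, small eyes with closure of the pupillary membrane. The Ctrl lenses came from Yap1f/f and Yap1f/+ littermates without abnormalities. The genotype field calls the controls WT, but they carry floxed alleles. Which promoter drives Cre was not stated in the labels, and a pool can mix animals and both genotypes. P-values therefore measure the spread between these pools.

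Mitochondrial carriers are small proteins of the inner mitochondrial membrane that move nucleotides, phosphate, carboxylates, amino acids and cofactors between the cytosol and the matrix. They are made in the cytosol without a cleaved presequence in most cases and are inserted by the TIM22 complex. In the lens, epithelial cells and young fibre cells hold mitochondria, whereas maturing fibre cells degrade them together with their other organelles.

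The libraries held 22047553 to 25762805 counts. Yap1 itself (ENSMUSG00000053110) had 92 and 61 counts in cKO 1 and 2 against 155, 133 and 143 in Ctrl 1, 2 and 3, a log2 fold change of −1.08 (edgeR adjusted p = 0.0759, SE 0.33). The count does not separate the floxed exons from the rest of the gene. Transcripts of other cells differed between the groups. The 15 macrophage markers summed to 207 and 43.8 CPM in cKO 1 and 2 against 1.90 to 3.90 CPM in Ctrl (CPM is counts divided by the TMM-scaled library size and set to a common total). Of the 11 tested, 10 rose, where 5.76% of all genes tested were called higher. Several, such as Aif1 (1, 0 and 0 counts in Ctrl) and Tyrobp (2, 1 and 3), passed the filter on low counts through the cKO libraries alone. Their direction was therefore nearly fixed beforehand. Of the 8 lens epithelium markers 4 fell, and of the 10 lens fibre markers 2 fell, where 7.73% of all genes tested were called lower. Of the 10 fibre markers 5 had a positive change. The 9 erythroid markers in the table summed to 65.8 and 2.20 CPM in cKO and 5.42 to 50.2 CPM in Ctrl, with Slc4a1 and Epb42 at 0 throughout. The Y-linked genes Ddx3y and Eif2s3y had 0 counts in both cKO libraries and 558 to 854 in each Ctrl library, so that sex and genotype cannot be told apart. In such bulk libraries, fewer cells of a type and less RNA per cell cannot be told apart either.

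As a family the carriers made up a larger share of the cKO libraries. The 37 members took 0.117 and 0.129% of all counts in cKO 1 and 2 against 0.0732, 0.0789 and 0.0831% in Ctrl 1, 2 and 3. On the TMM scale their sum was 1124 ± 53.2 CPM in cKO (SD, n = 2) and 831 ± 16.2 CPM in Ctrl (SD, n = 3), a ratio of 1.35. In the deposited FPKM, which are per gene length, the sums were 637 and 703 in cKO and 388, 421 and 442 in Ctrl, a ratio of 1.61. Every cKO library lay above every Ctrl library on all these scales. A large part of the sum came from few genes: Slc25a4 alone held 36.1 and 39.4% of the family's FPKM in cKO and 32.2 to 32.6% in Ctrl. Without Slc25a4 and Slc25a39 the sums were 471 and 439 CPM in cKO against 413, 426 and 426 CPM in Ctrl, a ratio of 1.08. In FPKM they were then 244 and 279 in cKO against 189 to 224 in Ctrl, a ratio of 1.27.

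All 37 members passed the filter on low counts and were tested. In edgeR's quasi-likelihood test with Benjamini-Hochberg adjustment over all 11724 genes, 6 members rose (Slc25a3, Slc25a4, Slc25a24, Slc25a39, Slc25a45 and Slc25a48) and 1 fell (Slc25a29). These 7 are 18.9% of the members, and 13.5% of all genes tested were called. By direction, 5.76% of all genes were called higher and 7.73% lower. At an unadjusted p under 0.05 stood 15 members, against 32.3% of all genes. The median log2 fold change of the members was 0.17 and that of all genes was −0.06, and 24 of 37 members (64.9%) had a positive change against 47.1% of all genes. The cKO and Ctrl values of 17 members did not overlap (13 higher and 4 lower in cKO, 45.9% of the members), and the same held for 51.5% of all genes. Slc25a45 and Slc25a48 met the count rule through cKO columns only and Slc25a29 through Ctrl columns only. Of the other 34 members, each with at least 10 counts in a library of both groups, 4 were called (11.8%). The 13.5% of all genes was not restricted in that way, so these shares are not like for like.

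The calls rested on all 3 Ctrl libraries. Without Ctrl 1, 2 or 3, edgeR called 0 of the 7 (adjusted p from 0.0929 to 0.182, 0.0983 to 0.189 and 0.0811 to 0.144). All 7 kept their direction each time, which was nearly fixed beforehand because their groups did not overlap. At an unadjusted edgeR p under 0.05 stood 11, 9 and 11 members, against 15 with all libraries. The share of all genes at that level is not given here for these fits, and with all libraries it was 32.3%. Calls over all genes dropped alike, to 0.58%, 0.179% and 0.879% of those tested. With cKO 1 or cKO 2 left out, all 7 were called again, and 13 and 18 members were called in all, the lone cKO library then being assumed to vary like the controls. Without those libraries 38.2% and 42% of all genes were called. DESeq2 called 10 members, Slc25a11, Slc25a22 and Slc25a36 besides the 7 (23.3% of all genes), and edgeR without the filter on low counts called 6 (9.05% of 15761 genes). With the replicate number as a block, edgeR called 0 members (adjusted p of the 7 from 0.118 to 0.307) and 1.49% of all genes.

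**Figure D1:**
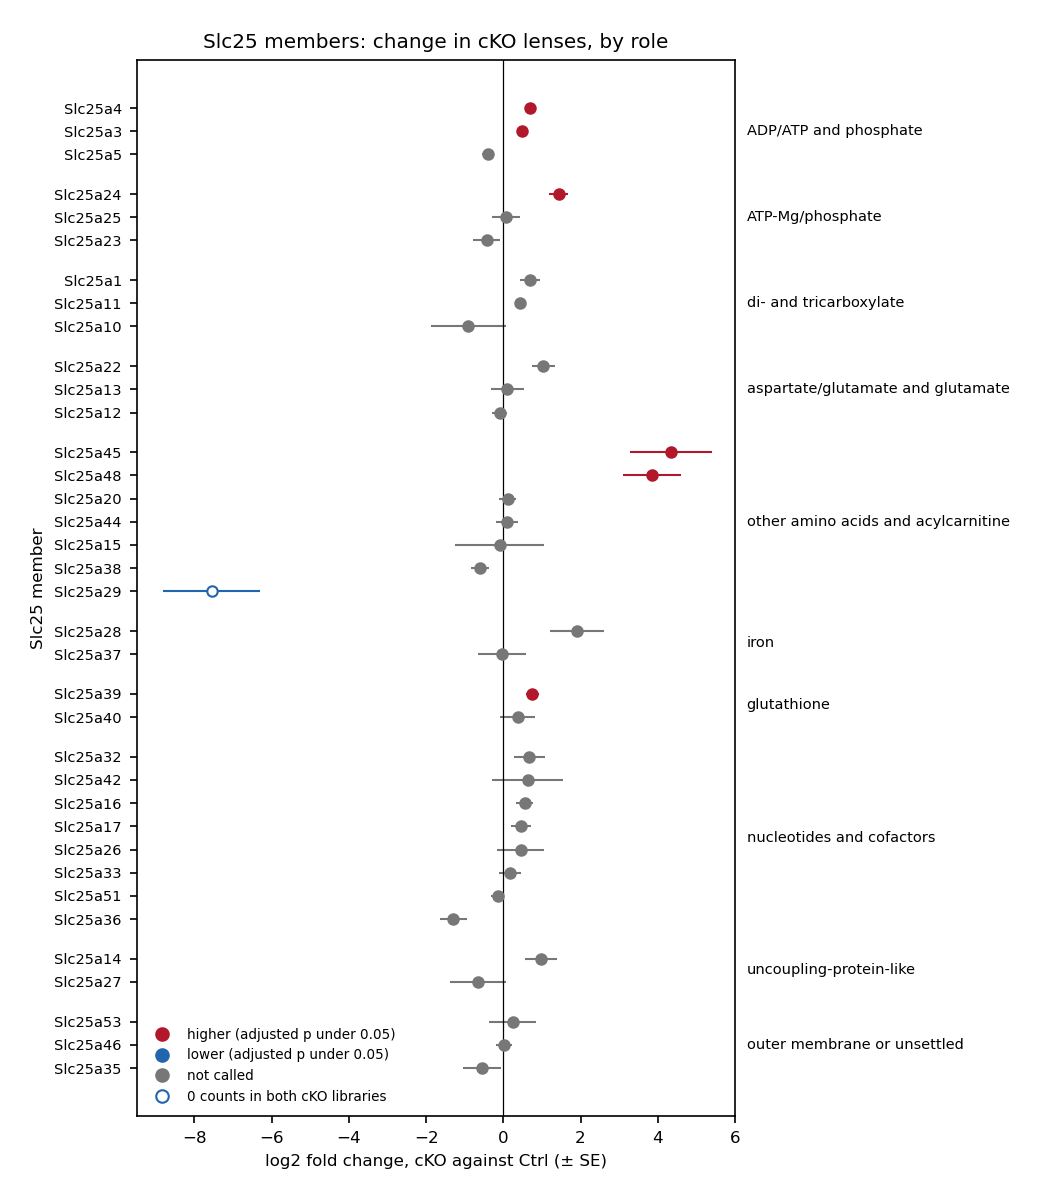
Log2 fold change of 36 Slc25 members (x axis, cKO against Ctrl, bars are standard errors from the edgeR fit), grouped by the role of the carrier. Coloured points were called at an adjusted p under 0.05. The 6 called higher lie between 0.49 and 4.34, and the open point is Slc25a29, which had 0 counts in both cKO libraries, so that its fitted value is no measure of size.

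Ranked per length in Ctrl, Slc25a4 led with 135 ± 9.28 FPKM (SD, n = 3), followed by Slc25a39 (76.8 ± 4.50), Slc25a5 (53.9 ± 9.24), Slc25a3 (41.4 ± 2.99), Slc25a11 (19.1 ± 1.11) and Slc25a33 (14.8 ± 0.599). The ranges of neighbours among these 6 did not overlap. From Slc25a51 (9.21 ± 1.24) down through Slc25a36, Slc25a17 and Slc25a20, neighbouring ranges overlapped. In cKO the order was Slc25a4 (253 ± 33.3 FPKM, n = 2), Slc25a39 (155 ± 11.7), Slc25a3 (68.0 ± 9.65) and Slc25a5 (47.1 ± 2.94), with the last pair in the reverse of its Ctrl order. Slc25a24 stood 18th in Ctrl and 12th in cKO, and Slc25a36 went from 8th to 15th.

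**Figure D2:**
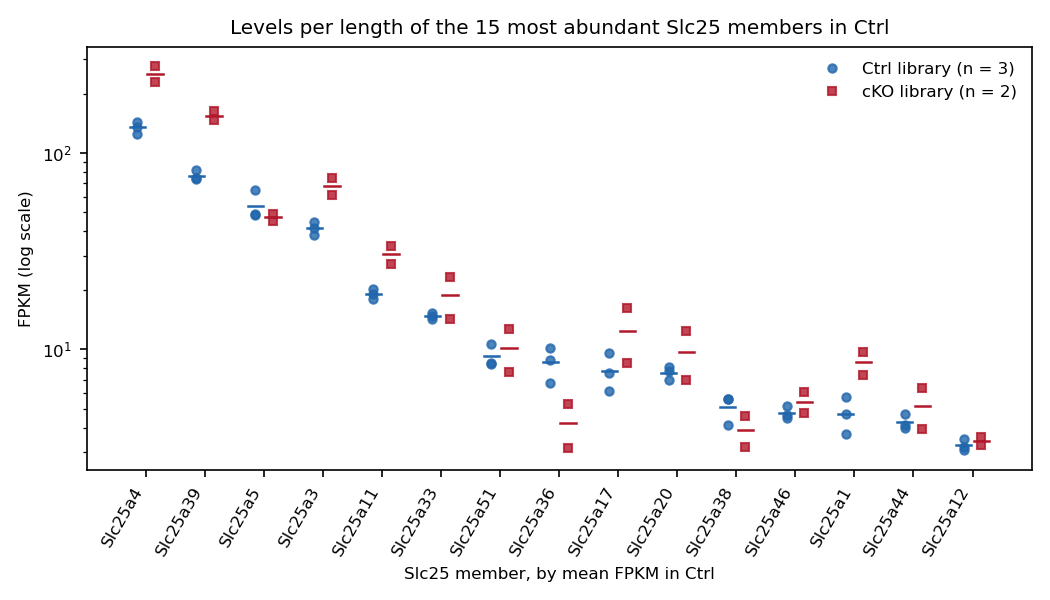
FPKM (log axis) of the 15 members most abundant in Ctrl, with each library as a point and group means as lines. Slc25a4, Slc25a39, Slc25a3 and Slc25a11 lie higher in both cKO libraries than in any Ctrl library, whereas Slc25a5 overlaps and Slc25a36 lies lower.

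Carriers of ADP, ATP and phosphate supply ATP synthase and export its product. Slc25a4 encodes the ADP/ATP carrier typical of heart and muscle, Slc25a5 the ADP/ATP carrier common in dividing cells, and Slc25a3 the phosphate carrier. Bases upstream of their starts are shown because the ADP/ATP pair went opposite ways on the CPM scale. They are 250 bases before the RefSeq start (GRCm38.p6), 5′ to 3′ on the gene's strand, at chr8:46211063-46211312 (minus strand), chrX:36795347-36795596 (plus strand) and chr10:91123968-91124217 (minus strand). Capitals mark matches on either strand to CCGGAAG (the core of ETS factor sites), GGAATG (the core of sites for TEAD factors, the DNA-binding partners of Yap1) or the NRF1 element.
Slc25a4: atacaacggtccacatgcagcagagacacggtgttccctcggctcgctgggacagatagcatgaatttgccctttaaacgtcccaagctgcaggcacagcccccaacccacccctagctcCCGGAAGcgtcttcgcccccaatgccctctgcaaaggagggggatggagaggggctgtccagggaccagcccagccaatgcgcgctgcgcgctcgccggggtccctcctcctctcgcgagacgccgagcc
Slc25a5: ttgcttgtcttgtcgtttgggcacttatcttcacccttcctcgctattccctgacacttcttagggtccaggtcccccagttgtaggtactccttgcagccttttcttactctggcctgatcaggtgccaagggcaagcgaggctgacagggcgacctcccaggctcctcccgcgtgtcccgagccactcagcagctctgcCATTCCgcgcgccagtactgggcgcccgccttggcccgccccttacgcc
Slc25a3: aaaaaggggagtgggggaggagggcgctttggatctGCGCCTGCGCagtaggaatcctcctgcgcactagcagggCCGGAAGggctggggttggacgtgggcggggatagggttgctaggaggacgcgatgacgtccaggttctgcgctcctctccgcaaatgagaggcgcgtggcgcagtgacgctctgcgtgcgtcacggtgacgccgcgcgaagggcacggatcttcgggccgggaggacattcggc
In these windows Slc25a4 had a CCGGAAG match 130 to 124 bases before the start. Slc25a5 had GGAATG on the opposite strand, 49 to 44 bases before it. Slc25a3 had CCGGAAG (175 to 169 bases before the start) and the NRF1 element on the opposite strand (214 to 205 bases before it), which was the only NRF1 match in the members' windows.

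Such a window was found for 28 of the 37 members (37 windows, some of 1 gene with several starts, which can overlap). CCGGAAG was in 5 of these windows (13.5%) and in 6.91% of the 32851 windows of all genes. GGAATG was in 8 of them (21.6%) and in 12.6% of all windows, and the NRF1 element in 1 (2.7%) and in 3.74% of all windows. AAGGTCA (the element of oestrogen-related receptors) and TGATGNAA (a C/EBP-ATF element) were in 0 of the 37, and in 4.08% and 3.45% of all windows. No 2 matches overlap in the windows printed. The windows printed here all hold a match, whereas that of Slc25a39, also examined and not printed, held no match to these elements. A match describes these letters and is not a bound site.

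Slc25a4 (ENSMUSG00000031633) was measured at 439 and 450.0 CPM in cKO 1 and 2 and at 271, 281 and 274 CPM in Ctrl 1, 2 and 3. The libraries of a group lay close together and the groups were far apart, 445 ± 7.54 (SD, n = 2) against 275 ± 4.98 CPM (SD, n = 3). Slc25a4 rose by 0.69 on the log2 scale, a fold of 1.61 (edgeR adjusted p = 0.0237, SE 0.12). Slc25a5 (ENSMUSG00000016319) stood at 55.5 and 51.5 CPM in cKO and at 68.0, 64.3 and 79.1 CPM in Ctrl. Its log2 fold change of −0.40 (SE 0.15) was not called (edgeR adjusted p = 0.128), and in FPKM its groups overlapped (45 and 49.2 in cKO against 48.8, 48.2 and 64.5 in Ctrl). Slc25a5 is X-linked, and the cKO pools lacked Y-linked RNA, whose part in this result was not tested. The ratio of Slc25a4 to Slc25a5 in FPKM was 5.10 and 5.63 in cKO and 2.57, 2.81 and 2.23 in Ctrl. The sum of both was 275 and 326 FPKM in cKO and 174, 184 and 209 FPKM in Ctrl, so that the pair as a whole was also more abundant in cKO. The 2 genes' GENCODE transcripts share 0 words of 31 bases, and all their counts were whole numbers.

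Slc25a3 (ENSMUSG00000061904) was at 96.8 and 99.0 CPM in cKO and 68.8, 70.3 and 69.7 CPM in Ctrl. It rose by 0.49 on the log2 scale, a fold of 1.41 (edgeR adjusted p = 0.0466, SE 0.12), with the smallest change of the 7 called members. Without the filter on low counts it was not called (edgeR adjusted p = 0.0616). The testis-type ADP/ATP carrier Slc25a31 had no count in any library.

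**Figure D3:**
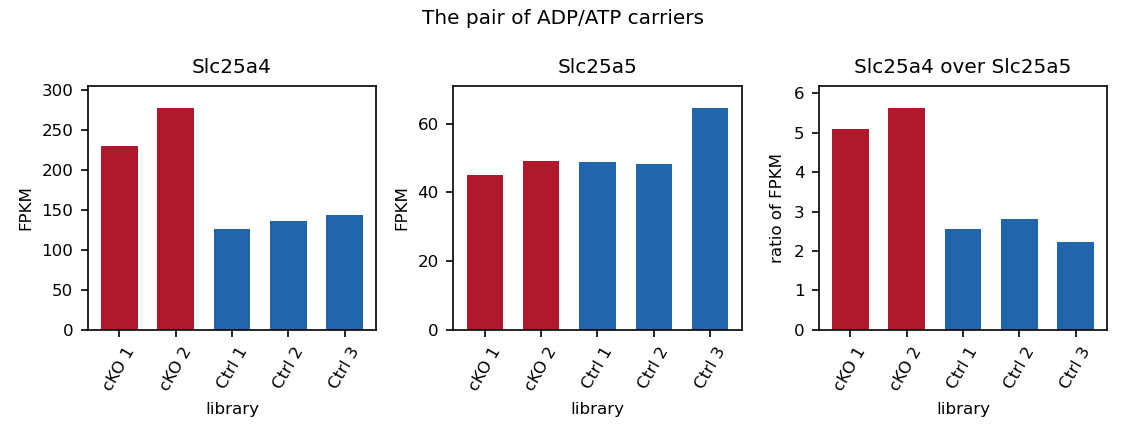
FPKM of the ADP/ATP carriers Slc25a4 and Slc25a5 in each library (bars from 0) and their ratio. Slc25a4 and the ratio are higher in both cKO libraries, at 5.10 and 5.63 for the ratio against 2.23 to 2.81, and Slc25a5 overlaps between the groups.

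The ATP-Mg/phosphate carriers exchange magnesium-bound ATP for phosphate under control of cytosolic calcium and set the matrix pool of adenine nucleotides. Of the 3 members 1 rose and 2 were not called, where 13.5% of all genes were called. Slc25a24 (ENSMUSG00000040322) stood at 20.2 and 18 CPM in cKO and 7.61, 8.35 and 5.22 CPM in Ctrl, with every cKO value above every Ctrl value. It rose by 1.44 on the log2 scale, a fold of 2.71 (edgeR adjusted p = 0.021, SE 0.24). Its relatives Slc25a23 (2.69 ± 0.679 CPM in cKO, 3.62 ± 0.598 in Ctrl) and Slc25a25 (5.62 ± 2.75 in cKO, 5.34 ± 0.854 in Ctrl) overlapped between the groups (edgeR adjusted p = 0.436 and 0.914). Per length, Slc25a24 was 6.54 and 2.48 times Slc25a23 in cKO 1 and 2 and 1.51, 1.78 and 1.08 times in Ctrl. The 250 bases before the start of Slc25a24 (chr3:109122899-109123148, plus strand, GRCm38.p6, RefSeq) are shown as those of the most changed member above 10 CPM in any library. They hold GGAATG on the opposite strand 248 to 243 bases before the start, in capitals.
Slc25a24: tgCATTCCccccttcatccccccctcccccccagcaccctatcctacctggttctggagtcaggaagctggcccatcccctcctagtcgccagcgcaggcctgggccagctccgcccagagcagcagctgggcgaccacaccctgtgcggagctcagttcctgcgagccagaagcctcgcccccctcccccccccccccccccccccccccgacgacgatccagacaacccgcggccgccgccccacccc

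Glutathione enters the matrix through Slc25a39 and its relative Slc25a40, and the lens is known for its high glutathione content. Slc25a39 (ENSMUSG00000018677) was at 252 and 198 CPM in cKO and 137, 142 and 122 CPM in Ctrl. Both cKO libraries lay above every Ctrl library but apart from each other. Slc25a39 rose by 0.75 on the log2 scale, a fold of 1.68 (edgeR adjusted p = 0.0349, SE 0.16), with 0.57 without cKO 1 and 0.94 without cKO 2. Slc25a40 was far less abundant (1.84 ± 0.175 CPM in cKO, 1.42 ± 0.297 CPM in Ctrl) and was not called (log2 fold change 0.37, edgeR adjusted p = 0.619, SE 0.45). Per length, Slc25a39 exceeded Slc25a40 by 128 to 161 times in Ctrl and by 201 and 220 times in cKO.

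The carriers of amino acids, choline and acylcarnitine held the largest changes in size, all in transcripts of low abundance. Of the 7 members 2 rose, 1 fell and 4 were not called, where 13.5% of all genes were called. The 3 called here met the count rule only through the group in which they were higher. Their calls therefore do not describe the role. Slc25a29 (ENSMUSG00000021265), which carries basic amino acids such as arginine and lysine, had 16, 19 and 33 counts in Ctrl 1, 2 and 3 and 0 in both cKO libraries. It was at least 8.36-fold lower in cKO, taking 3 counts in each cKO library as the upper limit of 0 (edgeR adjusted p = 0.0261). Slc25a48 (ENSMUSG00000021509), a mitochondrial choline carrier, had 42 and 36 counts in cKO and 1, 2 and 4 in Ctrl. It rose by 3.85 on the log2 scale (edgeR adjusted p = 0.0276, SE 0.75), from 0.0992 ± 0.0536 to 1.53 ± 0.265 CPM. The ratio of its summed counts, scaled by library size, was 14.8 (exact 95% interval 6.84 to 38, counting error only). Slc25a45 (ENSMUSG00000024818), a less studied member of the same branch, had 33 and 16 counts in cKO and 1, 0 and 2 in Ctrl. The ratio of its counts was 21.7 (exact 95% interval 6.99 to 109, counting error only; edgeR adjusted p = 0.0454), and without the filter on low counts it was not called (edgeR adjusted p = 0.0611). The macrophage markers differed between the same libraries (207 and 43.8 CPM in cKO), and their part in the results for Slc25a45 and Slc25a48 was not tested.

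The other members of this role were more abundant and varied less between groups. Slc25a20, which exchanges acylcarnitine for carnitine in fatty acid oxidation, was at 12.3 and 18.7 CPM in cKO and 14.1, 14.8 and 14.3 CPM in Ctrl (log2 fold change 0.11, edgeR adjusted p = 0.774, SE 0.22). Both cKO libraries lay outside the narrow Ctrl range, on opposite sides of it. Slc25a38, which supplies glycine for haem synthesis, was at 5.68 and 6.93 CPM in cKO and 8.17, 10.5 and 9.87 CPM in Ctrl, without overlap and not called (−0.60, edgeR adjusted p = 0.133, SE 0.23). Slc25a44, a carrier of branched-chain amino acids, had 17.1 ± 7.75 CPM in cKO and 16.1 ± 0.424 in Ctrl. The ornithine carrier Slc25a15 had 2 counts in cKO 1 and 110 in cKO 2, against 42, 40 and 73 in Ctrl. This was the widest gap between the cKO libraries among the members, with cKO 1 below and cKO 2 above every Ctrl library.

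Carriers of carboxylates and of aspartate and glutamate link the citric acid cycle with the cytosol, among others through the malate-aspartate shuttle. None of their 6 members was called, where 13.5% of all genes were called, and so few members say little about the role. Slc25a11, the oxoglutarate/malate carrier of that shuttle, was at 44.5 and 48.4 CPM in cKO and 33.7, 35.2 and 34.2 CPM in Ctrl, without overlap. Its log2 fold change of 0.43 (SE 0.13) missed the threshold (edgeR adjusted p = 0.0736) and passed it under total-count scaling (edgeR adjusted p = 0.0481) and in DESeq2 (adjusted p = 0.0242). The citrate carrier Slc25a1 (16.1 and 10.5 CPM in cKO, 8.54, 6.64 and 9.41 in Ctrl) and the glutamate carrier Slc25a22 (11.4 and 21.3 CPM in cKO, 6.82, 8.69 and 8.37 in Ctrl) also did not overlap. For Slc25a22 the log2 fold change was 1.04 (edgeR adjusted p = 0.0678, SE 0.30), and it was 1.42 without cKO 1 and 0.54 without cKO 2. For Slc25a1 it was 0.69 (edgeR adjusted p = 0.133, SE 0.27). The aspartate/glutamate carriers Slc25a12 and Slc25a13 had changes of −0.10 and 0.10 (edgeR adjusted p = 0.765 and 0.896), and the sign of each turned under another setting. The dicarboxylate carrier Slc25a10 had 37 and 3 counts in cKO and 40, 26 and 37 in Ctrl.

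Mitoferrins bring iron into the matrix for haem and iron-sulphur clusters, with Slc25a37 the form of red cell precursors and Slc25a28 the form of other tissues. Slc25a28 had 44 and 38 counts in cKO and 15, 8 and 5 in Ctrl, with no overlap. Its log2 fold change of 1.91 (SE 0.71) was not called by edgeR (adjusted p = 0.123), and was called by limma on log2(FPKM + 1) (adjusted p = 0.0161) and on log2(FPKM + 0.1) (adjusted p = 0.0284). Slc25a37 had 15 and 28 counts in cKO and 22, 18 and 17 in Ctrl (log2 fold change −0.04, edgeR adjusted p = 0.979, SE 0.62). Its counts were partly fractional in 3 libraries. The ratio of Slc25a28 to Slc25a37 in FPKM was 5.33 and 2.35 in cKO and 1.75, 0.880 and 0.744 in Ctrl.

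None of the 9 members that carry nucleotides or cofactors was called, where 13.5% of all genes were called. Slc25a33 and Slc25a36 both carry pyrimidine nucleotides. Slc25a36 had the largest negative value after Slc25a29, at 25 and 11.2 CPM in cKO and 39, 49.5 and 44.5 CPM in Ctrl, without overlap. Its log2 fold change was −1.30 (edgeR adjusted p = 0.0571, SE 0.35), and it passed in DESeq2 (adjusted p = 0.00325) and in edgeR without the filter on low counts (adjusted p = 0.0463). It was −1.99 without cKO 1 and −0.80 without cKO 2. Slc25a33 was at 44.1 and 22.8 CPM in cKO, on either side of the Ctrl values of 31.2, 31.3 and 26.5 CPM (log2 fold change 0.17, edgeR adjusted p = 0.722, SE 0.28). The ratio of Slc25a36 to Slc25a33 in FPKM was 0.224 and 0.220 in cKO, against 0.460, 0.662 and 0.622 in Ctrl. In the CPM above, the ratios of the cKO libraries lie further apart from each other.

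Among the others of this role, Slc25a16, which is linked to coenzyme A, was at 9.35 and 7.86 CPM in cKO and 5.89, 5.76 and 5.99 CPM in Ctrl, without overlap (0.55, edgeR adjusted p = 0.134, SE 0.21). The folate and FAD carrier Slc25a32 did not overlap on the CPM scale either (2.33 and 2.87 in cKO, 1.86, 1.76 and 1.27 in Ctrl), but did in FPKM. The NAD carrier Slc25a51 had 22.1 ± 3.14 CPM in cKO and 24.4 ± 2.39 CPM in Ctrl. The peroxisomal carrier Slc25a17, the S-adenosylmethionine carrier Slc25a26 and the coenzyme A carrier Slc25a42 overlapped between the groups (edgeR adjusted p = 0.295, 0.666 and 0.688).

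Of the carriers that resemble uncoupling proteins, Slc25a14 was at 4.25 and 3.05 CPM in cKO and 2.46, 1.32 and 1.80 CPM in Ctrl. Its log2 fold change of 0.97 (SE 0.41) was not called (edgeR adjusted p = 0.161). Slc25a14 is X-linked like Slc25a5, and the part of sex in its result was not tested. Slc25a27 had 8 and 40 counts in cKO and 29, 33 and 35 in Ctrl. Slc25a46, a protein of the outer membrane linked to mitochondrial shape, was at 26.3 and 17.5 CPM in cKO and 22.7, 20.2 and 21.9 CPM in Ctrl (log2 fold change 0.02, edgeR adjusted p = 0.97). Slc25a35 and Slc25a53, whose substrates are not settled, were below 2 CPM in each library and not called (edgeR adjusted p = 0.476 and 0.822).

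**Figure D4:**
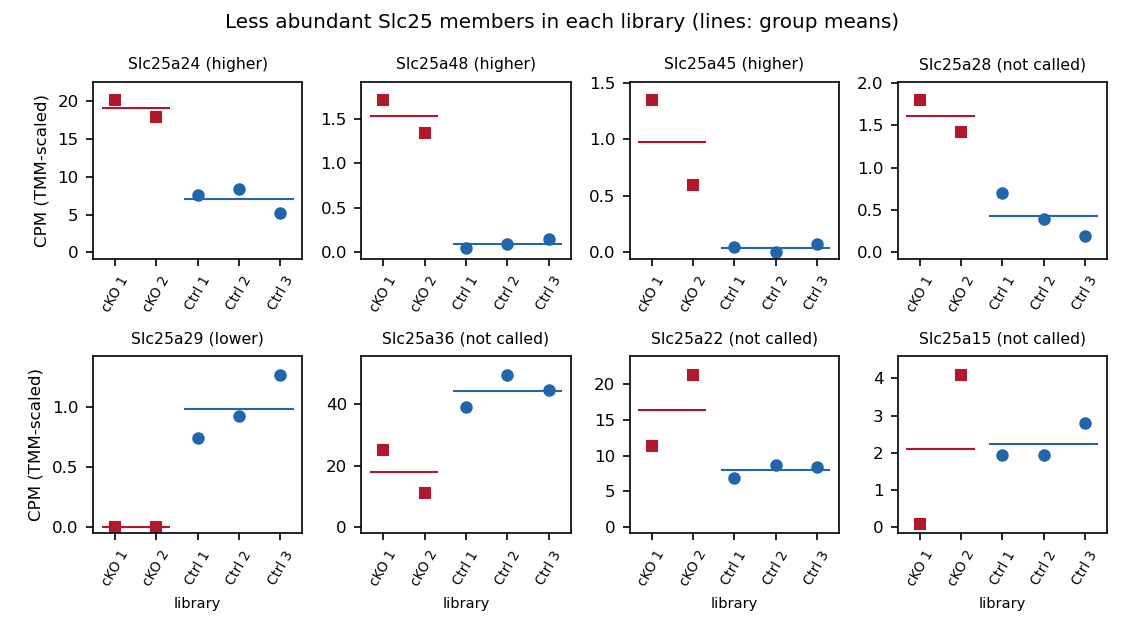
CPM of 8 less abundant or divided members in each library, with lines at the group means, the y axes differing between genes. Slc25a24, Slc25a48 and Slc25a45 are higher in both cKO libraries and Slc25a29 is at 0 there, whereas Slc25a15 has 0.0817 CPM in cKO 1 and 4.10 CPM in cKO 2.

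The cKO libraries differed from each other in 9 of the 37 members by more than 2-fold (24.3%, with 0.1 CPM added), against 30.2% of all genes. The Ctrl libraries spread over more than 2-fold in 2 of the 37 members, against 1418 of the 11724 genes tested. Members with a mean of at least 10 CPM numbered 15, of which 4 were called (26.7%), against 768 of 4286 genes (17.9%) at that level.

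The 10 family genes outside the rule had few or no counts. Slc25a18, Slc25a31, Slc25a41 and Slc25a54 had none. Slc25a43 came closest, with 7 and 26 counts in cKO against 6, 1 and 5 in Ctrl. Just inside the rule stood Slc25a45 and Slc25a48 with 2 passing libraries each. Slc25a47 had 0 counts in cKO and 4, 2 and 3 in Ctrl, Slc25a34 had 0 in cKO against 0, 2 and 8 in Ctrl, and Slc25a30 had 2 and 0 in cKO and 7, 5 and 1 in Ctrl. Slc25a21 and Slc25a2 had 3 counts and 1 count in all, each in 1 Ctrl library.

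The 6 companion lists of genes around the carriers were chosen with earlier results of these data known. They held 83 tested genes, each counted once, of which 15 were called (18.1%). Of all genes tested 13.5% were called, 5.76% higher and 7.73% lower. Among family members with other symbols, Mtch1 of the outer membrane rose by 0.61 (edgeR adjusted p = 0.0318, SE 0.13), from 77.6 ± 2.12 to 119 ± 9.25 CPM, and Ucp1 was at 0. Of the 13 genes of carrier import, Timm13, a small intermembrane-space chaperone, rose by 0.92 (edgeR adjusted p = 0.0199, SE 0.15), from 19.97 ± 2.12 to 37.8 ± 0.0348 CPM. The receptor Tomm70a, which binds carrier precursors, fell by 0.85 (edgeR adjusted p = 0.0346, SE 0.18), and the other 11 were not called. The list's median log2 fold change was 0.46. Of 15 ATP synthase genes in the table, 14 had a positive change, against 47.1% of all genes. Of the 15, 1 was called, Atp5g3 of the membrane ring (0.89, edgeR adjusted p = 0.0178, SE 0.14). The median of that list was 0.33.

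Of 21 tested transporters of other families in mitochondria, 2 rose and 2 fell, with a median of 0.18. The serine carrier Sfxn1 rose by 0.85 (edgeR adjusted p = 0.0177, SE 0.13) and the outer-membrane channel Vdac3 by 0.96 (edgeR adjusted p = 0.0386, SE 0.22). Of the 3 carnitine palmitoyltransferase genes in the list, Cpt1a and Cpt2 fell and Cpt1c was not called. Cpt1a, which makes acylcarnitine at the outer membrane, was at 12.1 and 21.8 CPM in cKO and 80.1, 97.3 and 84.7 CPM in Ctrl (fell by 2.36, edgeR adjusted p = 0.00992, SE 0.28). Cpt2, which turns acylcarnitine back into acyl-CoA in the matrix, was at 73.1 and 63.0 CPM in cKO and 276, 261 and 245 CPM in Ctrl (fell by 1.94, edgeR adjusted p = 0.00373, SE 0.15). Cpt1c, a relative of Cpt1a, was at 14.2 and 23.2 CPM in cKO against 10.2, 10.4 and 13.1 CPM in Ctrl, without overlap (log2 fold change 0.74, edgeR adjusted p = 0.107, SE 0.26). Slc25a20, which acts between both steps, had the change of 0.11 given above.

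Among 22 enzymes that use what the carriers move, 4 rose and 0 fell, with a median of 0.31 (edgeR, Benjamini-Hochberg adjusted). Cytosolic malate dehydrogenase Mdh1 rose by 0.63 (edgeR adjusted p = 0.03, SE 0.13), the glutathione peroxidase Gpx4 by 0.72 (edgeR adjusted p = 0.0314, SE 0.15), the proline enzyme Pycr1 by 0.95 (edgeR adjusted p = 0.0437, SE 0.23) and the asparagine synthetase Asns by 2.73 (edgeR adjusted p = 0.00957, SE 0.32). Of 10 tested genes for mitochondrial content and clearance, the mitophagy receptor Bnip3 rose by 1.83 (edgeR adjusted p = 0.0141, SE 0.26). The co-activator Ppargc1a had 0 counts in cKO and 12, 18 and 12 in Ctrl (edgeR adjusted p = 0.0366). Ppargc1a passed the filter on low counts through the Ctrl libraries alone, so its direction was fixed beforehand. It is among the called companion genes counted above. The median of this list was −0.01, and Tfam and Cs had changes of 0.03 and −0.19 that were not called (edgeR adjusted p = 0.944 and 0.511). Mitochondrially encoded transcripts took 0.579 and 0.671% of counts in cKO and 0.271, 0.272 and 0.354% in Ctrl.

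**Figure D5:**
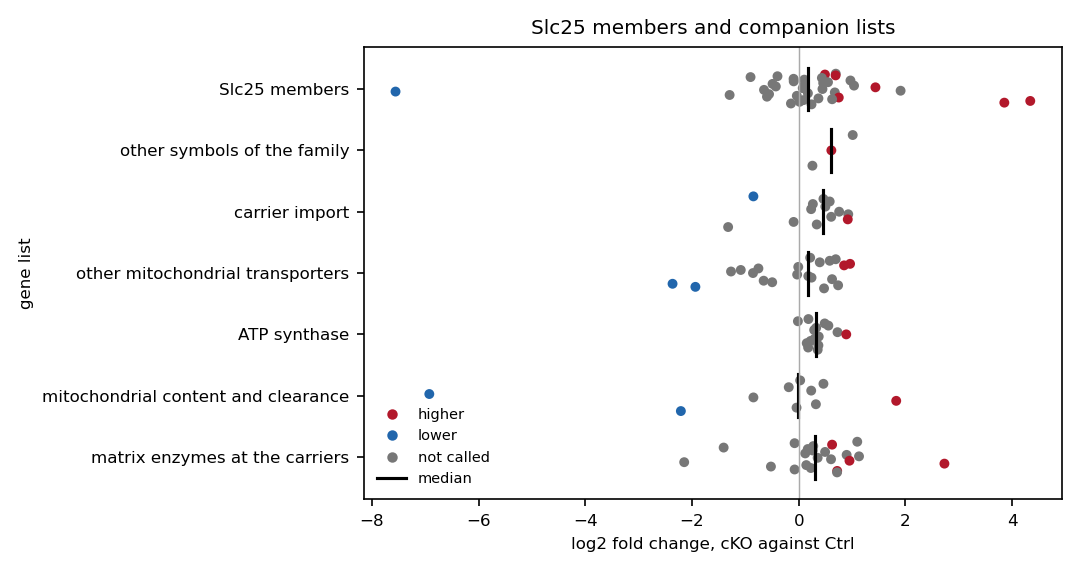
Log2 fold change (x axis) of each tested gene in the Slc25 members and 6 companion lists, coloured by call, with a black line at each median. The medians lie between −0.01 and 0.61, and the leftmost blue points are Slc25a29 and Ppargc1a, with 0 counts in both cKO libraries.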

How the data were processed

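The RNA, poly(A)-selected from 5 pools of whole lenses, was read in pairs of 150 bp. A single table was deposited by the authors, and per the file headers it holds for each gene and library a count, treated here as an RSEM expected count because some are fractional. The same deposited table gives FPKM, the authors' values per gene length and library. RSEM, Trimmomatic 0.18.0 and GRCm39 appear in the submitters' processing notes, without roles. Neither aligner nor strandedness was stated.

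For the comparison, counts were rounded, genes kept by filterByExpr (at least 10 counts, 15 in total; 11724 of 22183 genes) and TMM factors computed. The quasi-likelihood F test of edgeR 4.0.16 (R 4.3.3) then compared the groups with no block and 3 residual degrees of freedom. Calls are at a Benjamini-Hochberg adjusted p under 0.05 over all genes tested, and "rose" and "fell" refer to them. SE is the log2 fold change divided by the root of F. Alternatives used DESeq2 1.42.0, limma 3.58.1 on log2 FPKM with 1 or 0.1 added, other scalings, no filter, a replicate block and each library left out. The code was tested on simulated counts. A count of 0 allows up to 3 counts, and floors and intervals cover counting error only.

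Members, roles and companion lists were chosen with earlier results of these data known. The rule for named genes gives in full every called member, the most abundant member of each role and members without overlap and a log2 fold change of at least 1 in size, with their isoform partners. Other values were chosen after they were seen. Values of 1 member and of single listed genes are not reported here. Fractional counts, found for 6 members, can mark reads shared between genes. Promoter windows come from RefSeq on GRCm38.p6, and no coordinates were moved to the authors' build.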

Additional observations from a re-analysis of the deposited data

How the results depend on the processing

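Calls fell when a Ctrl library was left out and increased when a cKO library was left out. The cause was not tested. With each library left out in turn, members called ranged from 0 to 13 higher and from 0 to 5 lower, and all genes from 6 to 2077 higher and from 15 to 2847 lower. The members' median ranged from 0.17 to 0.38. DESeq2 called 1209 genes higher and 1521 lower, with 2 members lower. Total-count scaling called 1234 genes higher against 717 lower and moved the median of all genes from −0.06 to 0.16 and that of the members to 0.36. The log2 FPKM fits called 1380 (1 added) and 1402 (0.1 added) genes higher, and with 0.1 added 2 members were lower and the members' median was 0.35. Without the count filter 2 members were lower. The summed level in cKO over Ctrl was 1.61 in FPKM and 1.57 in total-count CPM against 1.35.

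The replicate numbers are shared by only 2 pairs, and the correlations of same-numbered libraries' deviations were 0.111 and −0.0834. Those of cKO 2 with Ctrl 1 and cKO 1 with Ctrl 2 were −0.111 and 0.0834. With only 2 cKO libraries their deviations mirror each other, so such correlations cannot show whether the numbers pair the samples. With a replicate block 68 genes were higher and 107 lower, 0 members were called in either direction (8 at an unadjusted p under 0.05) and the members' median was 0.075. Without the block 15 members and 32.3% of all genes stood at that unadjusted level in edgeR.

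All 7 called members kept their direction under all 12 alternatives. These reuse the same libraries, and the groups of the 7 did not overlap in CPM, so their direction could hardly turn. Signs turned only among members not called with all libraries. Total-count scaling gave 0.11 for Slc25a12 and 0.22 for Slc25a37. With log2(FPKM + 1) these were 0.0545 and 0.14, with 0.13 for Slc25a23, and with log2(FPKM + 0.1) 0.0690 and 0.39, with 0.14 for Slc25a23. With the replicate block Slc25a13 was at −0.14 and Slc25a25 at −0.12. Leaving out a library gave −0.38 to 0.60 for Slc25a33 (edgeR adjusted p = 0.0173 for the highest, without cKO 2), −0.31 to 0.31 for Slc25a46, −0.63 to 0.62 for Slc25a13, −0.44 to 0.30 for Slc25a37, −0.20 to 0.38 for Slc25a20, −0.19 to 0.0128 for Slc25a12 and −0.51 to 0.50 for Slc25a25. The cause of these moves was not tested. At a floor of 3 counts (0.112 to 0.146 CPM), fold sizes of Slc25a29, Slc25a45 and Slc25a48 are limited by depth.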

Other observations

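Among 666 pairs of the 37 members in the GENCODE M21 transcripts, the largest overlap was 20 shared words of 31 bases, found for Slc25a42 with Slc25a48 and for Slc25a42 with Slc25a51. Slc25a24 and Slc25a32 shared 4 such words. Counts that were not whole numbers were found in 3 libraries for Slc25a51 and in 4 libraries each for Slc25a25 and Slc25a35.

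The citrate-using enzyme gene Acly, downstream of the citrate carrier Slc25a1, was measured in cKO at 8.94 and 23.2 CPM, below the 43.1, 43 and 42 CPM of Ctrl (log2 fold change −1.41, SE 0.39, edgeR adjusted p = 0.0603), whereas Slc25a1 was higher in both cKO libraries. The calcium uniporter gene Mcu had 3.01 ± 1.52 CPM in cKO (SD, n = 2) and 7.25 ± 0.745 CPM in Ctrl (SD, n = 3), also without overlap (−1.27, edgeR adjusted p = 0.0725, SE 0.38). The uncoupling protein gene Ucp2, also expressed by macrophages, lay above the Ctrl range of 1.51 to 2.04 CPM in cKO 1 (5.60 CPM) and below it in cKO 2 (1.27 CPM) (edgeR adjusted p = 0.323). These genes were chosen after their values were seen.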
